A study of Mus musculus with 4 samples.

Results

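Messenger RNA of 10 genes that encode AP-1 factors, early growth response factors and a related immediate early protein was followed through the stroma of a major salivary gland of the mouse, the submandibular gland. The genes were Fos, Fosb, Fosl2, Jun, Junb, Jund, Atf3, Egr1, Egr2 and Ier2. They were taken by gene symbol from the deposited single-cell count matrices, which list 31053 genes, and all 10 were found. Single-cell libraries of the 10x Genomics platform came from female C57BL6/J mice. In 2 deligated libraries, from mice 14 weeks old, a metal clip had closed the main ducts for 14 days and had then been off for 5 days. The clip and the harvest took in the neighbouring sublingual gland too, although the tissue is labelled submandibular. In 2 homeostatic libraries, from mice 12 weeks old, the glands had no surgery, so age and surgery differ together and cannot be told apart. All 4 suspensions were digested with enzymes at warm temperature, depleted of EpCAM-positive epithelial and Ter119-positive red blood cells with beads, and cleared of dead cells. The labels do not say how many mice gave each library, so p-values measure the spread between libraries, which may be partly technical.

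AP-1 is a dimer of basic leucine zipper proteins. Proteins of the Fos family (Fos, Fosb, Fosl2) must pair with a Jun protein (Jun, Junb, Jund) to bind DNA, whereas Jun proteins can also pair with each other, and Atf3 is a related leucine zipper protein that often represses. Egr1 and Egr2 are zinc finger factors that bind GC-rich sites. Most of these genes, with Ier2, are immediate early genes: their transcription starts within minutes of a growth factor, cytokine, mechanical or stress signal, without new protein synthesis, and their transcripts decay quickly. Enzymatic dissociation of tissue is itself known to induce them, so their levels in single-cell libraries can hold a part from the living gland and a part from the preparation.

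In the GENCODE M21 annotation (build GRCm38) Jun (chromosome 4), Jund and Ier2 (both chromosome 8) are single-exon genes, while Fos (chromosome 12), Fosb (7), Fosl2 (5), Junb (8), Atf3 (1), Egr1 (18) and Egr2 (10) have introns. Promoter windows of 250 bases before the transcription start were found for 8 of the 10 genes in the RefSeq table (build GRCm38.p6), in 12 windows because Egr2 has 5. For Junb, Jund and some Egr2 windows, the bases checked after the RefSeq start were not found in a GENCODE transcript of the gene. The Jund window ends at base 70697738, before the GENCODE start of the gene at 70698949. The upstream sequences of Fos, Jun and Junb are shown because these are the genes that were higher in deligated cells of every class tested. Capitals mark the letters GGAA, the core of sites for ETS factors, on either strand.
Fos (chr12:85473640-85473889, + strand): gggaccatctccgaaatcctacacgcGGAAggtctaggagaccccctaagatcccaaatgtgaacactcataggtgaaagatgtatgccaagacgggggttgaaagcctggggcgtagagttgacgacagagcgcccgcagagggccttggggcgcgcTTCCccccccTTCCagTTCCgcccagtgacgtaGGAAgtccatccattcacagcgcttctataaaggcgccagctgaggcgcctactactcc
Jun (chr4:95052223-95052472, - strand): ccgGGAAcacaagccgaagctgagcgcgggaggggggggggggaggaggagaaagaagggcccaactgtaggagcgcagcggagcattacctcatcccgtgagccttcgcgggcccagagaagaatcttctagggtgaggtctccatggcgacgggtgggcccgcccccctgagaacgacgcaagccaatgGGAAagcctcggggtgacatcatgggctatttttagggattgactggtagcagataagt
Junb (chr8:84978749-84978998, - strand): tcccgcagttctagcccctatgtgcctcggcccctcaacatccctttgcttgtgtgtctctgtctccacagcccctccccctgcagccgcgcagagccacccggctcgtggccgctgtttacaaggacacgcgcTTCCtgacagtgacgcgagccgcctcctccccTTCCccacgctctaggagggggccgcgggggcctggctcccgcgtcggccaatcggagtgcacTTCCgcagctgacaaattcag
The core occurs 5 times before Fos, 2 times before Jun and 3 times before Junb, but 93.4% of the 32851 windows in the table hold it. Neither the cyclic AMP response letters TGACGTCA (1.55% of windows) nor the AP-1 letters TGANTCA (6.75% of windows) were found in any member window on either strand. The CArG box, the motif of serum response factor, was found in 4 of the 5 Egr2 windows and in 1.47% of all windows. The Egr2 windows that overlap share the same site, and a further window, which does not overlap them, holds a different box. A stretch of 30 bases is shown for Egr2 because it holds the shared box, in capitals, 72 to 63 bases before 1 of the starts.
Egr2 (chr10:67537787-67537816, + strand): gttcctcagtCCATATATGGgcagcgacgt
A match of letters is a description and not a bound site, and absence from these windows says nothing of sites elsewhere.

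The libraries held 4725 and 8713 (deligated) and 12854 and 13266 (homeostatic) barcodes, with 35662241 to 53898793 UMIs (unique molecular identifiers, which count captured RNA molecules) per library. Pairs of libraries shared between 14 and 54 barcode sequences. Cells were clustered without the 10 genes and their pathway lists, and classes are named by resemblance to markers. The markers of each class summed to 15898 to 17623 CPM (UMIs of a gene scaled to the UMI total of the class in a library) in endothelial-like, 45317 to 59518 CPM in fibroblast-like, 26842 to 29108 CPM in mural-like, 3807 to 4543 CPM in NK/innate lymphoid-like and 4398 to 5421 CPM in T cell-like cells. Transcripts of fibroblast markers in endothelial-like cells summed to 58.5 and 209 CPM (deligated) against 18.9 and 17.9 CPM (homeostatic), and in NK/innate lymphoid-like cells to 66.8 and 218 against 18.3 and 14.5 CPM. In T cell-like cells the sums were 78.8 and 265 against 18.9 and 29.97 CPM, and in mural-like cells 1558 and 1996 against 921 and 845 CPM. Transcripts of 5 erythroid markers stood out in deligated replicate 2, with 5643 CPM in the mural-like class (34.1, 165 and 77.0 CPM in the other libraries) and 2431 CPM in the fibroblast-like class (55.8, 418 and 63.8 CPM). In NK/innate lymphoid-like cells they were lower in the deligated libraries, at 42.6 and 428 against 607 and 1066 CPM. In T cell-like cells they were higher, at 216 and 232 against 145 and 139 CPM. Other lists were lower in the deligated libraries. The 10 epithelial markers summed to 2.26 and 4.22 against 42.6 and 63.6 CPM in endothelial-like and to 29.6 and 76.3 against 162 and 213 CPM in T cell-like cells. The 8 macrophage markers summed to 5.63 and 19.7 against 29.5 and 23.8 CPM in endothelial-like and to 3.17 and 15.9 against 36.7 and 23.97 CPM in T cell-like cells. Within the endothelial-like class the 6 lymphatic endothelial markers summed to 279.7 and 273 against 121 and 169.8 CPM. The part of all these transcripts in the results below was not tested. The matrices were made by Cell Ranger 6.0.1 in the deligated and 7.0.0 in the homeostatic libraries, per the file headers. Genes with over 100 kb of intron had a median log2 fold change between -1.38 and -0.71 in the 5 classes tested, and genes with at most 2 kb of intron between 0.19 and 0.38, while the median of all genes lay between -0.00063 and 0.029. Software version and surgery cannot be told apart, and 7 of the 10 genes (all but Fosl2, Atf3 and Egr2) have at most 2 kb of intron. The test of each class was therefore run over all genes and again over the short-intron genes alone, with library sizes from those genes. The test between classes and that within 1 shared cluster, given further on, were run over all genes only. As a further setting, the trend of the fold change with intron length over all genes was taken out of each gene through an offset in the model. Libraries were also left out in turn. With 1 library left in a group, only the other group gives a spread between libraries, so such a fit cannot show that a difference passes. Shares of all genes called are given for the fits over all genes and short-intron genes, the shared cluster and the test between classes. Counts of members under other settings only show how calls moved.

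In endothelial-like cells 9 of the 10 genes were higher in the deligated libraries (edgeR, adjusted p under 0.05), in a fit that called 12.9% of all 13192 genes higher and 22.2% lower. Without homeostatic replicate 2 that count was 6. In fibroblast-like cells 5 of 10 were higher, against 8.48% of all genes higher and 17.6% lower, and 3 were without homeostatic replicate 1 or without homeostatic replicate 2. In mural-like cells, the pericytes and smooth muscle cells around vessels, 5 of the 9 tested were higher, against 0.568% higher and 4.75% lower. This class had 68 and 121 cells in the homeostatic libraries and was fitted although a minimum of 100 cells had been planned; when homeostatic replicate 1 was left out, 1 member was called. In NK/innate lymphoid-like cells 6 of 10 were higher and 1 lower, against 16.3% higher and 26.6% lower. In T cell-like cells 7 of the 9 tested were higher, against 7.13% higher and 15.4% lower. In each class, nearly all deligated and nearly all homeostatic cells fell into different clusters, apart from 1 endothelial-like and 1 T cell-like cluster, so each class compares largely different clusters. The median mitochondrial share of UMIs per cell was also higher in the deligated libraries in endothelial-like (3.004% and 2.72% against 2.06% and 2.19%), NK/innate lymphoid-like (2.83% and 2.74% against 2.38% and 2.39%) and T cell-like cells (3.09% and 3.01% against 2.52% and 2.48%). It overlapped between the groups in fibroblast-like and mural-like cells. The part of this in the counts was not tested. The median log2 fold change of the tested members was 0.83, 0.56, 0.89, 0.55 and 0.88 in the same order of classes. Fos, Jun and Junb were higher in all 5 classes, Egr1 and Ier2 in 4, Fosl2 and Jund in 3, Fosb in 2, Egr2 in 1 of the 3 in which it was tested, and Atf3 in none.

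**Figure D1:**
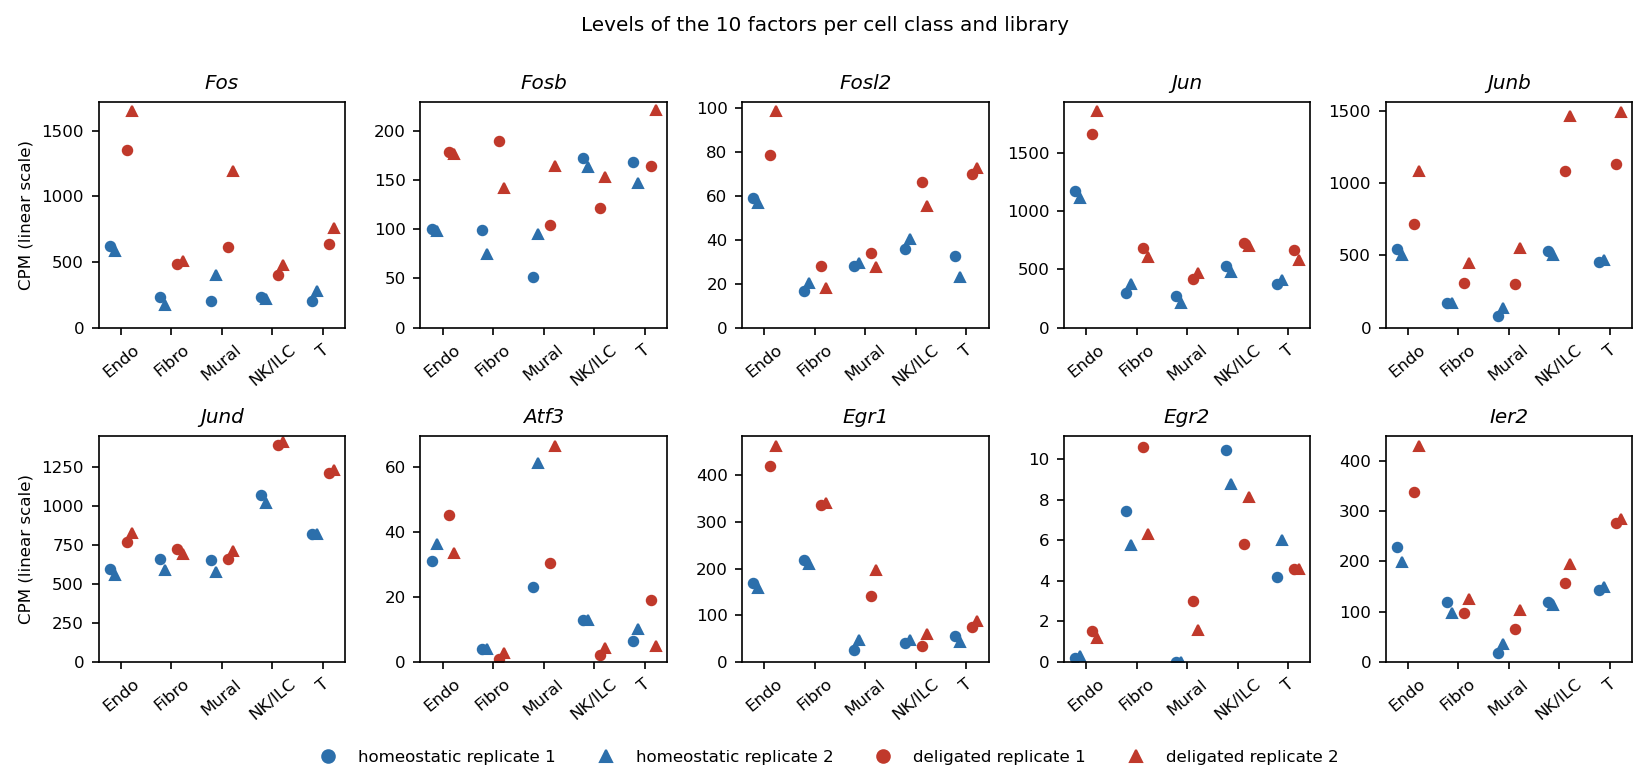
Levels of the 10 genes in CPM on linear axes (1 panel per gene, each with its own scale), by cell class (endothelial-like, fibroblast-like, mural-like, NK/innate lymphoid-like, T cell-like) and library. Each point is 1 library; both deligated points lie above both homeostatic points in every class for Fos, Jun and Junb, and below them for Atf3 in NK/innate lymphoid-like cells.

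Fos, the prototype immediate early gene and the partner that gives AP-1 its strongest activation, was at 1353 and 1647 CPM in the deligated libraries and 622 and 582 CPM in the homeostatic libraries in endothelial-like cells. Both deligated libraries were above both homeostatic ones (edgeR log2 fold change 1.33 ± 0.10 SE, adjusted p 0.000279). In fibroblast-like cells Fos was at 488 and 507 CPM in the deligated libraries and 235 and 169 CPM in the homeostatic libraries (edgeR log2 fold change 1.37 ± 0.15 SE, adjusted p 0.000167). In T cell-like cells it was at 639.8 and 761 CPM in the deligated libraries and 203 and 278 CPM in the homeostatic libraries, again without overlap (edgeR log2 fold change 1.69 ± 0.17 SE, adjusted p 0.000367). Of the 5 classes, NK/innate lymphoid-like cells had the lowest deligated levels of Fos, with 400.4 and 478 CPM against 230.5 and 218 CPM in the homeostatic libraries (edgeR log2 fold change 1.06 ± 0.092 SE, adjusted p 5.69e-05). Mural-like cells were the least uniform: the levels were 617 and 1191 CPM and 199 and 401 CPM, so the groups did not overlap but the replicates within each lay far apart (edgeR log2 fold change 1.55 ± 0.37 SE, adjusted p 0.0445). The mural call was lost without homeostatic replicate 1 (log2 fold change 1.07, edgeR adjusted p 0.167), with DESeq2 (adjusted p 0.336) with RLE scaling (edgeR adjusted p 0.0601) and after subtraction of the intron trend (0.118), and no alternative gave an adjusted p above 0.336.

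Fosb, a Fos family member with its own truncated splice form in other tissues, was higher in endothelial-like and fibroblast-like cells only, as far as these tests go. Its endothelial-like levels were 179 and 177 CPM in the deligated and 100.3 and 98.4 CPM in the homeostatic libraries (edgeR log2 fold change 0.86 ± 0.084 SE, adjusted p 0.000687). In fibroblast-like cells they were 190.4 and 143 CPM and 99.3 and 75.3 CPM (edgeR log2 fold change 1.00 ± 0.19 SE, adjusted p 0.00413), a call lost without homeostatic replicate 2 (log2 fold change 0.82, edgeR adjusted p 0.123). For NK/innate lymphoid-like cells the order was the opposite, 122 and 154 CPM in the deligated and 173 and 164 CPM in the homeostatic libraries, but the difference did not pass the threshold (edgeR log2 fold change -0.20 ± 0.10 SE, adjusted p 0.153). It passed, as lower, after subtraction of the intron trend (log2 fold change -0.53, edgeR adjusted p 0.00666). The log2 fold change was -0.33 without deligated replicate 2. Levels in T cell-like cells overlapped between groups (164 and 222 against 169 and 147 CPM), and those in mural-like cells did not overlap but missed the threshold (edgeR log2 fold change 0.89 ± 0.31 SE, adjusted p 0.166). Without deligated replicate 1 the T cell-like and mural-like log2 fold changes were 0.63 and 1.15.

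Fosl2 encodes Fra-2, a Fos family protein whose transcripts usually rise later than those of Fos. It was higher in deligated T cell-like cells, at 69.7 and 72.5 CPM against 32.5 and 23.0 CPM (edgeR log2 fold change 1.51 ± 0.21 SE, adjusted p 0.00180). In NK/innate lymphoid-like cells the levels were 66.2 and 55.5 and 35.9 and 40.1 CPM (edgeR log2 fold change 0.75 ± 0.14 SE, adjusted p 0.00319), and in endothelial-like cells 78.4 and 98.7 and 59.0 and 56.5 CPM (edgeR log2 fold change 0.63 ± 0.10 SE, adjusted p 0.00479). The groups overlapped in fibroblast-like (27.8 and 18.1 against 16.5 and 20.1 CPM) and mural-like cells (34.1 and 27.5 against 28.0 and 29.4 CPM). Without deligated replicate 2, Fosl2 had a log2 fold change of 0.72 in fibroblast-like cells. Its T cell-like call was lost in cells thinned to 1000 UMIs (log2 fold change 1.82, edgeR adjusted p 0.0584). Fosl2 holds 12362 bases of intron and could not enter the short-intron fit.

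Jun, the core activating partner of Fos proteins, was at 1668 and 1862 CPM in the deligated libraries and 1175 and 1111 CPM in the homeostatic libraries in endothelial-like cells (edgeR log2 fold change 0.64 ± 0.089 SE, adjusted p 0.00270). The endothelial call was lost without homeostatic replicate 2 (log2 fold change 0.62, edgeR adjusted p 0.0711). In fibroblast-like cells Jun was at 681 and 603 against 297 and 372 CPM (edgeR log2 fold change 1.00 ± 0.15 SE, adjusted p 0.000951), lost without homeostatic replicate 1 (log2 fold change 0.84, edgeR adjusted p 0.0622). Lymphoid cells had 730.4 and 699.9 against 528 and 481 CPM in NK/innate lymphoid-like (edgeR log2 fold change 0.59 ± 0.086 SE, adjusted p 0.000978) and 666 and 583 against 378 and 406 CPM in T cell-like cells (edgeR log2 fold change 0.83 ± 0.12 SE, adjusted p 0.00259). In mural-like cells Jun was at 414 and 472 against 268 and 213 CPM (edgeR log2 fold change 0.85 ± 0.17 SE, adjusted p 0.0210), a call lost without either homeostatic library (edgeR adjusted p 0.0536 and 0.13), with the replicate number as a block (0.0594) and with cells thinned to 1000 UMIs (0.314). After subtraction of the intron trend, the Jun calls in NK/innate lymphoid-like (log2 fold change 0.12, edgeR adjusted p 0.319), T cell-like (0.30, 0.176) and mural-like cells (0.57, 0.155) were lost, and the estimates that still passed fell to 0.36 in endothelial-like and 0.66 in fibroblast-like cells. Jun has no intron, and Junos overlaps it on the opposite strand; reads of such partners cannot be told apart where strand is not used.

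Junb, a Jun protein that is also a brake on Jun-driven proliferation in several cell types, had its highest mean deligated levels in lymphoid cells. In T cell-like cells it was at 1133 and 1495 CPM in the deligated libraries and 457 and 469.5 CPM in the homeostatic libraries (edgeR log2 fold change 1.65 ± 0.14 SE, adjusted p 0.000161), and in NK/innate lymphoid-like cells at 1088 and 1468 against 531 and 504 CPM (edgeR log2 fold change 1.39 ± 0.12 SE, adjusted p 5.31e-05). The homeostatic levels of these classes and of endothelial-like cells were close to each other, between 457 and 546 CPM. In endothelial-like cells the deligated libraries reached 715 and 1082 CPM against 546 and 499 CPM (edgeR log2 fold change 0.79 ± 0.17 SE, adjusted p 0.0133). Fibroblast-like cells had 308 and 449 against 169 and 169 CPM (edgeR log2 fold change 1.22 ± 0.17 SE, adjusted p 0.000482). Mural-like cells had the lowest homeostatic levels of the 5 classes, 79.0 and 134 CPM, and 303 and 549.6 CPM in the deligated libraries (edgeR log2 fold change 1.98 ± 0.33 SE, adjusted p 0.00861); without homeostatic replicate 1 this call was lost (log2 fold change 1.58, edgeR adjusted p 0.0594). Prdx2 overlaps Junb on the other strand.

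Jund, the Jun family member that is expressed at a steady level in most resting cells, had the smallest log2 fold changes of the Jun genes in each of the 5 classes. In NK/innate lymphoid-like cells, where it was highest in both groups, it was at 1393 and 1411 against 1075 and 1024 CPM (edgeR log2 fold change 0.50 ± 0.075 SE, adjusted p 0.00111). T cell-like cells had 1217 and 1235 against 822 and 824 CPM (edgeR log2 fold change 0.73 ± 0.093 SE, adjusted p 0.00111), and endothelial-like cells 771 and 828 against 597 and 559 CPM (edgeR log2 fold change 0.49 ± 0.085 SE, adjusted p 0.00657). The endothelial call was lost in thinned cells (log2 fold change 0.28, edgeR adjusted p 0.0858). It was also lost without homeostatic replicate 1 or 2, where the log2 fold changes were 0.52 and 0.45. Fibroblast-like and mural-like cells did not pass (log2 fold changes 0.25 and 0.13 with edgeR adjusted p of 0.162 and 0.730). The fibroblast-like log2 fold change was 0.34 without deligated replicate 2. After subtraction of the intron trend, Jund was called in none of the 5 classes: its log2 fold change was 0.038 in NK/innate lymphoid-like (edgeR adjusted p 0.747), 0.20 in T cell-like (0.217) and 0.20 in endothelial-like cells (0.127). Jund has no intron and is overlapped by Gm11175 on the other strand.

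Atf3, a stress-induced leucine zipper protein, was the exception. In NK/innate lymphoid-like cells it was lower in the deligated libraries, at 1.94 and 4.09 CPM against 12.7 and 12.9 CPM, from 11, 51, 84 and 90 UMIs in the order deligated 1, deligated 2, homeostatic 1, homeostatic 2 (edgeR log2 fold change -1.88 ± 0.28 SE, adjusted p 0.00119). After subtraction of the intron trend its log2 fold change was -1.56 (edgeR adjusted p 0.00483). Atf3 holds 45590 bases of intron. The 8 macrophage markers were also lower in the deligated NK/innate lymphoid-like cells, at 7.77 and 24.5 against 50.4 and 31.9 CPM (3, 1, 0 and 1 of them at 0 in the same order). Macrophage-like cells, whose mean Atf3 level was the highest of the classes in both groups, made up 0.964% and 1.24% of deligated and 8.50% and 8.23% of homeostatic cells. The part of these transcripts in the result was not tested. In endothelial-like cells the groups overlapped, at 45.2 and 33.6 against 31.1 and 36.3 CPM (edgeR log2 fold change 0.25 ± 0.18 SE, adjusted p 0.337). This log2 fold change was 0.50 without deligated replicate 2 and -0.027 without deligated replicate 1. Levels also overlapped in mural-like and T cell-like cells. With libraries left out the T cell-like log2 fold change ran from -0.58 to 1.38. In fibroblast-like cells Atf3 was at 0.849 and 2.76 against 3.99 and 4.02 CPM and missed the threshold (edgeR log2 fold change -1.003 ± 0.59 SE, adjusted p 0.246); without doublet removal it passed as lower (log2 fold change -2.60, edgeR adjusted p 0.0019). In macrophage-like cells Atf3 was at 216 and 321 CPM (deligated) against 234 and 198 CPM (homeostatic), which overlapped. Schwann-like cells came next by mean, at 252 and 20.2 against 21.1 and 69.7 CPM from 45, 6, 3 and 6 UMIs, and their range overlapped that of macrophage-like cells in the deligated libraries.

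Egr1, a zinc finger factor induced through the MAP kinase and serum response pathway, was higher in every class but NK/innate lymphoid-like cells. In endothelial-like cells it was at 421 and 463 CPM in the deligated libraries and 169.8 and 159 CPM in the homeostatic libraries (edgeR log2 fold change 1.44 ± 0.085 SE, adjusted p 9.91e-05). Mural-like cells had 142 and 196 against 24.7 and 47.6 CPM (edgeR log2 fold change 2.25 ± 0.30 SE, adjusted p 0.00270). In fibroblast-like cells, which had the highest homeostatic level, Egr1 was at 337 and 341 against 219 and 210.3 CPM (edgeR log2 fold change 0.72 ± 0.12 SE, adjusted p 0.00168). After subtraction of the intron trend the fibroblast-like estimate was 0.40 (edgeR adjusted p 0.0471). The fibroblast call was lost without homeostatic replicate 1 (edgeR adjusted p 0.0841) or 2 (0.0926). T cell-like cells had 74.6 and 86.6 against 55.5 and 42.0 CPM (edgeR log2 fold change 0.88 ± 0.19 SE, adjusted p 0.0134), lost with DESeq2 (adjusted p 0.0609), without homeostatic replicate 2 (edgeR adjusted p 0.135), at finer clustering (0.085), in thinned cells (0.457) and after subtraction of the intron trend (0.157). In NK/innate lymphoid-like cells the levels overlapped, at 33.6 and 58.6 against 41.2 and 46.3 CPM (edgeR log2 fold change 0.19 ± 0.21 SE, adjusted p 0.494). With libraries left out this log2 fold change ran from -0.25 to 0.48.

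Egr2, a relative of Egr1 with roles in Schwann cells and in T cell tolerance, stayed below 11 CPM in each of the 5 classes. It was called in endothelial-like cells alone (edgeR log2 fold change 2.42 ± 0.46 SE, adjusted p 0.00875), on 22, 20, 3 and 4 UMIs in the order given above. That call was lost without either homeostatic library (edgeR adjusted p 0.117 and 0.0656). In fibroblast-like cells Egr2 was at 10.6 and 6.29 against 7.42 and 5.75 CPM and in NK/innate lymphoid-like cells at 5.83 and 8.10 against 10.4 and 8.77 CPM, and neither passed. It did not pass the filter on low counts in T cell-like cells (4.57 and 4.56 against 4.19 and 5.99 CPM) or in mural-like cells, where 7, 4, 0 and 0 UMIs were counted. The 0 counts in homeostatic mural-like cells allow a level of up to 4.94 and 6.79 CPM (3 counts of the class total), above the deligated levels of 2.99 and 1.55 CPM, so no difference was detectable at this depth.

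Ier2, a short immediate early protein without an intron in its gene, was higher in T cell-like cells, at 276 and 284 against 142 and 149 CPM (edgeR log2 fold change 1.09 ± 0.13 SE, adjusted p 0.000741). Endothelial-like cells had 339 and 429.5 against 229.5 and 199 CPM (edgeR log2 fold change 0.86 ± 0.12 SE, adjusted p 0.00267) and NK/innate lymphoid-like cells 156 and 194 against 119 and 114 CPM (edgeR log2 fold change 0.68 ± 0.10 SE, adjusted p 0.00112). In mural-like cells it was at 66.1 and 103 against 18.1 and 36.2 CPM (edgeR log2 fold change 1.67 ± 0.35 SE, adjusted p 0.0273), a call lost without homeostatic replicate 1 (log2 fold change 1.13, edgeR adjusted p 0.223) and without doublet removal (0.57, edgeR adjusted p 0.182). After subtraction of the intron trend, the calls in NK/innate lymphoid-like (log2 fold change 0.21, edgeR adjusted p 0.154) and mural-like cells (1.39, 0.105) were lost, and the estimates that still passed were 0.57 in both T cell-like and endothelial-like cells. Fibroblast-like cells were the class in which Ier2 overlapped between groups, at 96.8 and 125 against 119 and 96.5 CPM (edgeR log2 fold change 0.10 ± 0.16 SE, adjusted p 0.674).

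When only genes with at most 2 kb of intron were fitted, 7 members were tested in each class and fewer were called. In endothelial-like cells 4 were higher (Fos, Fosb, Egr1 and Ier2), in a fit that called 2.89% of 1629 genes higher. In fibroblast-like cells 2 were (Fos and Junb), against 1.15%, in NK/innate lymphoid-like cells 2 (Fos and Junb), against 2.19%, and in T cell-like cells 3 (Fos, Junb and Ier2), against 1.35%. In mural-like cells edgeR called 0 of 7, and 0.0% of 1071 genes, with 5 of the 7 at an unadjusted p under 0.05; over all genes DESeq2 called 4 of the 9 members tested in that class. The estimates for Fos were 1.13, 1.06, 1.37, 0.74 and 1.32 on the log2 scale in endothelial-, fibroblast-, mural-, NK/innate lymphoid- and T cell-like cells. For Junb they were 0.59, 0.91, 1.80, 1.08 and 1.29. Jun was called in none of the 5 classes in this fit, with estimates from 0.28 to 0.70, and Jund was between -0.056 and 0.36, below 0 in fibroblast-like and mural-like cells. Ier2 was at -0.21 in fibroblast-like cells and Egr1 at -0.14 in NK/innate lymphoid-like cells, both above 0 in the fit over all genes. Fosb in NK/innate lymphoid-like cells was at -0.52. Scaling to these genes lowered each estimate, since their median log2 fold change in the fit over all genes was above 0.

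**Figure D2:**
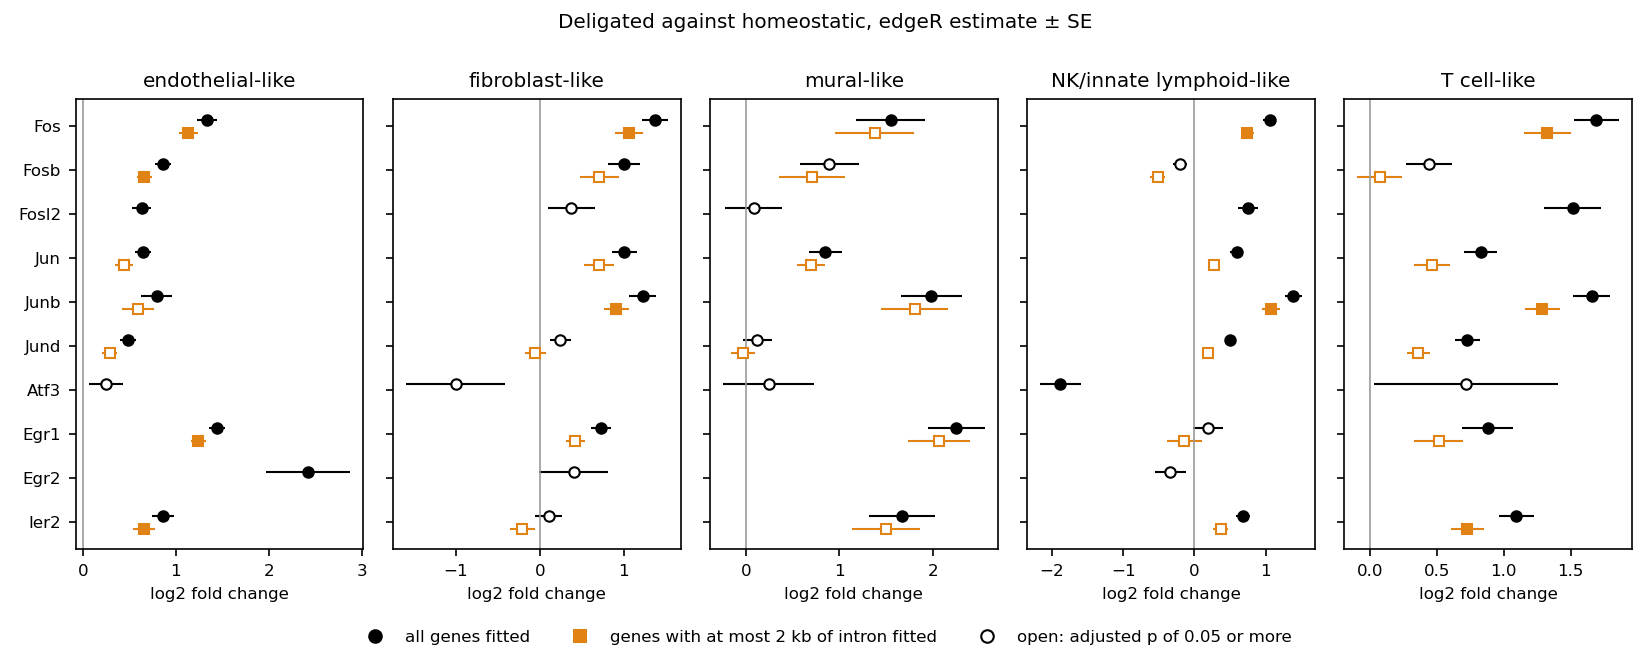
Log2 fold changes of the 10 genes, deligated against homeostatic, with the edgeR SE, in the fit over all genes (black circles) and over genes with at most 2 kb of intron (orange squares); filled symbols had an adjusted p under 0.05, and panels have their own x axes. Black points of Fos, Jun and Junb are filled in all 5 panels, orange points of Jun in none.

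Whether the change after deligation differed between classes was tested over endothelial-, fibroblast-, NK/innate lymphoid- and T cell-like cells in 1 model. It differed for 6 members, against 10.0% of 14682 genes: Junb (edgeR F test, adjusted p 0.00131), Ier2 (0.00197), Egr1 (0.00926), Fosb (0.0142), Atf3 (0.0215) and Jund (0.0478). Junb changed most in T cell-like and least in endothelial-like cells, Egr1 most in endothelial-like and least in NK/innate lymphoid-like cells, and Ier2 most in T cell-like and least in fibroblast-like cells. Fos and Jun did not differ between the 4 classes beyond the spread (adjusted p 0.163 and 0.299), nor did Fosl2 (0.119) and Egr2 (0.0531). These calls depended on the libraries used, and they were lost when homeostatic replicate 1 or 2 was left out.

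The only endothelial-like cluster with over 100 cells in each of the 4 libraries was one led by Selp and Vwf, which encode P-selectin and von Willebrand factor, with 183 and 177 deligated and 122 and 109 homeostatic cells. Within it 8 of 9 tested members were higher in the deligated libraries, against 2.98% of 8553 genes; this comparison was chosen after the clusters were seen. Egr1 led (edgeR log2 fold change 1.94 ± 0.26 SE, adjusted p 0.000177), followed by Fosb (edgeR log2 fold change 1.38 ± 0.22 SE, adjusted p 0.000742) and Fos (edgeR log2 fold change 1.35 ± 0.20 SE, adjusted p 0.000355). Fosl2, Jun, Junb, Jund and Ier2 were higher by 0.61 to 1.27 on the log2 scale. Atf3 did not pass (edgeR log2 fold change 0.60 ± 0.29 SE, adjusted p 0.206). The direction and the call of these 9 genes in the cluster were those of the whole class.

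Outside the 5 tested classes, macrophage-like and erythroid-like cells had too few deligated cells for a test (42 and 97 macrophage-like, 24 and 124 erythroid-like). The median erythroid-like cell had 11218 and 8794 UMIs (deligated) and 6795.5 and 5587.5 UMIs (homeostatic), more than the median endothelial-like cell of each library. Ter119-positive cells had been depleted, and what the erythroid-like cells are was not tested. In macrophage-like cells Fos was at 792 and 1046 CPM (deligated) against 343 and 321 CPM (homeostatic), and Junb at 994 and 952 against 355 and 332 CPM. In erythroid-like cells Fos was at 1049 and 1256 against 205 and 209 CPM. Neither pair of groups overlapped. Summed over the 10 genes, endothelial-like cells had the highest level of the classes with at least 20 cells in every library, 6097 ± 743 CPM (deligated) against 3415 ± 161 CPM (homeostatic; SD, n = 2 each). T cell-like (4506 ± 342 CPM), erythroid-like (4479 ± 603), macrophage-like (4302 ± 347) and NK/innate lymphoid-like cells (4264 ± 378) followed in the deligated libraries, and their ranges overlapped. In the homeostatic libraries the order was NK/innate lymphoid-like (2685 ± 101 CPM), T cell-like (2312 ± 59.3) and macrophage-like cells (2284 ± 80.1), of which only the last pair overlapped. Epithelial-like cells were lowest there, at 1054 ± 25.9 CPM.

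Joint levels in single cells were compared at 1 depth by thinning each cell to 1000 UMIs and counting cells with at least 10 UMIs from the 10 genes together. In endothelial-like cells such cells made up 13.6% (exact Clopper-Pearson 95% interval 12.1 to 15.2) and 18.5% (17.1 to 19.9) of cells in the deligated libraries. The homeostatic libraries had 6.23% (5.45 to 7.09) and 5.21% (4.49 to 6.02). In T cell-like cells the shares were 8.02% (5.84 to 10.7) and 8.62% (6.36 to 11.4) against 0.625% (0.0158 to 3.43) and 0.613% (0.0155 to 3.37). Among NK/innate lymphoid-like cells they were 5.30% and 6.58% against 0.506% and 0.671%, in fibroblast-like cells 3.71% and 4.17% against 1.20% and 1.56%, and in mural-like cells 4.08% and 8.07% against 0.862% and 1.49%. Both deligated libraries were above both homeostatic ones in each of these classes, and intervals overlapped between groups in fibroblast-like and mural-like cells. The difference in mural-like cells, 4.90 percentage points, was 2.90 without deligated replicate 2 and 2.70 without thinning. Of macrophage-like cells 14.7% and 12.8% were joint-high against 2.15% and 0.87%, from 5, 10, 15 and 6 cells. In homeostatic epithelial-like cells 1 of 1479 and 1 of 1520 cells were joint-high (0.0676% and 0.0658%), against 3 of 32 and 2 of 67 deligated ones (9.38% and 2.99%). Among erythroid-like cells the shares were 13.04% and 13.1% against 1.32% and 0.662%, from 3, 16, 2 and 1 cells. Unthinned, with 1% of a cell's own UMIs as the limit, the mean share was 14.4% ± 2.50 against 3.52% ± 0.27 in endothelial-like and 1.75% ± 0.079 against 0.0504% ± 0.0713 in NK/innate lymphoid-like cells (SD, n = 2 each).

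**Figure D3:**
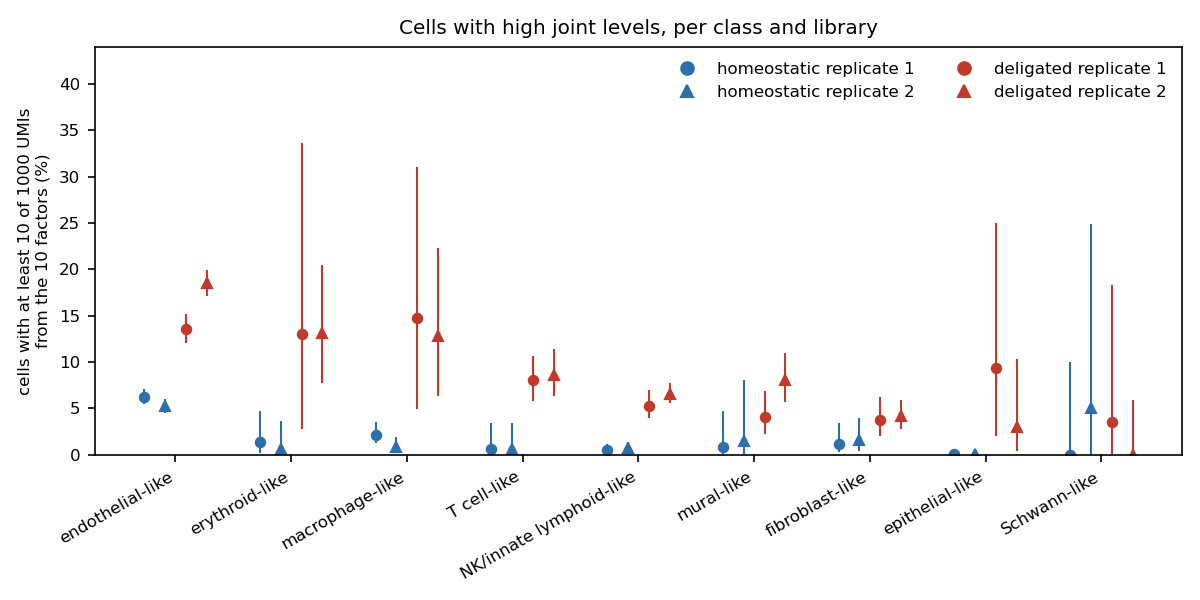
Share of cells with at least 10 of 1000 UMIs from the 10 genes, by class and library, with exact Clopper-Pearson 95% intervals that cover counting error only. Endothelial-like cells lie at 13.6% and 18.5% (deligated) against 6.23% and 5.21% (homeostatic); the intervals of classes with few cells are wide.

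At 20 of 1000 UMIs the endothelial-like shares were 4.37% ± 0.56 in deligated against 0.16% ± 0.059 in homeostatic libraries (SD, n = 2 each), and no NK/innate lymphoid-like cell reached that level. At 5 of 1000 UMIs, NK/innate lymphoid-like cells were at 44.2% ± 5.41 against 18.9% ± 0.19 and endothelial-like cells at 38.1% ± 8.26 against 26.3% ± 1.72. The median NK/innate lymphoid-like cell had 4 UMIs of the 10 genes in deligated and 2 in homeostatic libraries. In endothelial-like cells the medians were 2 and 4 against 2 and 2, and the values at the 90th percentile 12.8 and 14 against 8 and 8. Joint-high endothelial-like cells had more UMIs than the others in the deligated libraries (medians 7918 against 5648, and 5300.5 against 4273). In the homeostatic libraries the medians were 3718.5 against 3675, and 3555.5 against 3655. They had a lower median mitochondrial share in all 4 libraries (2.75% against 3.06%, 2.55% against 2.78%, 1.87% against 2.07%, 1.84% against 2.20%) and more heat shock UMIs per 1000 (5.45 against 3.99, 4.73 against 3.94, 5.00 against 3.98, 4.69 against 3.92). The part of these in the result was not tested.

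Between clusters of a class the share varied widely. A T cell-like cluster led by Cd163l1, Trdv4 and Il17a, genes of gamma-delta T cells that make interleukin 17, had joint-high shares of 20.5% (146 cells) and 25.0% (64 cells) in the deligated libraries and 3.70% in homeostatic replicate 2 (27 cells). A T cell-like cluster led by Cd8b1 and Ly6c2 was at 3.17% and 6.33% in the deligated libraries. A homeostatic T cell-like cluster had 0 of 139 and 0 of 132 cells. Among endothelial-like cells, the largest deligated cluster, led by Hlx and Aplnr, was at 14.9% (1437 cells) and 20.02% (2428 cells), and the largest homeostatic cluster at 6.996% and 5.88%. A small deligated cluster led by interferon-induced genes (Ifit3b, Ifit3) stood at 31.0% (42 cells) and 20.8% (154 cells), the latter level with the largest cluster of that library. A homeostatic cluster led by such genes (Ifit2, Ifit3) was at 8.02% and 5.83%. Clusters led by the arterial genes Sema3g and Cldn5 (deligated) or by Pcsk5 and Mannr (homeostatic) stood lower, at 2.97% and 10.1%, and 2.01% and 2.16%. The Selp and Vwf cluster was at 10.99% and 9.71% in the deligated libraries and 1.68% in homeostatic replicate 1, and 0 of its 104 cells in homeostatic replicate 2 were joint-high. In mural-like cells the smooth muscle cluster led by Tagln and Myh11 had 6.79% and 13.1%, and the pericyte cluster led by Kcnj8 and Abcc9 1.27% and 2.76%, all deligated, against 0.98% and 1.56% in the homeostatic mural-like cluster. The clusters were formed without these 10 genes, and no test was made between them.

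**Figure D4:**
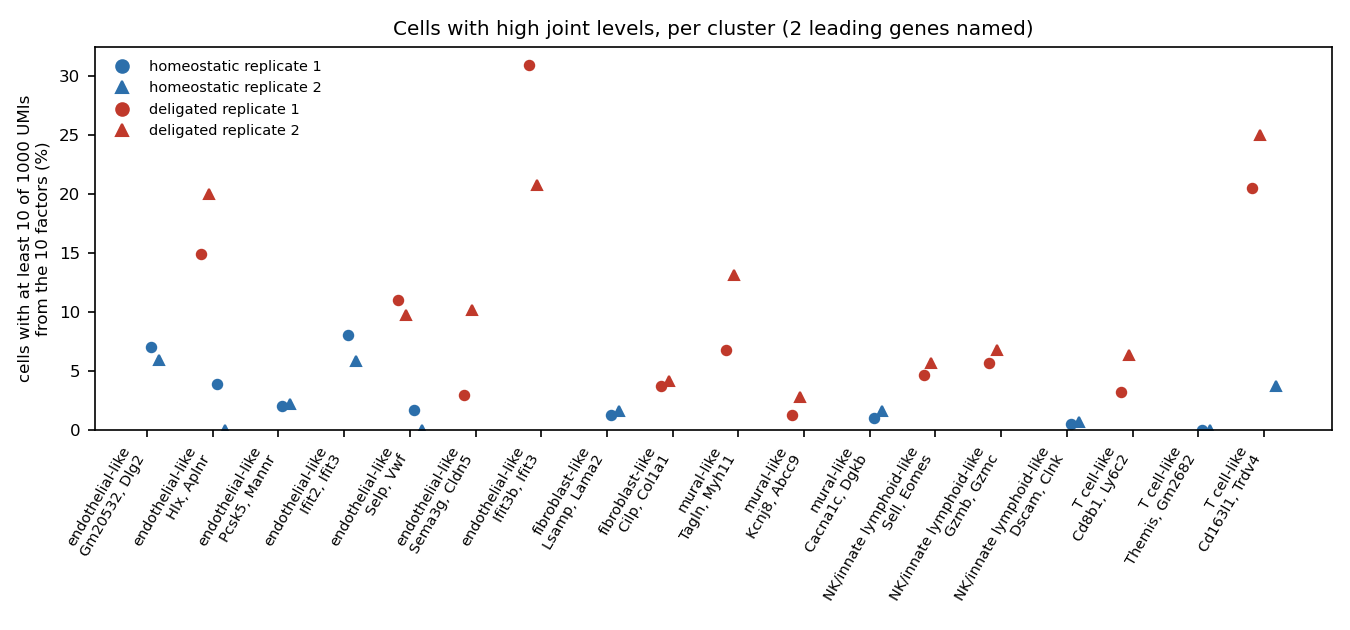
Share of cells with at least 10 of 1000 UMIs from the 10 genes in each cluster of the 5 tested classes (named by class and 2 leading genes), 1 point per library with at least 20 cells. The Cd163l1, Trdv4 cluster reaches 20.5% and 25.0% and the Ifit3b, Ifit3 cluster 31.0% and 20.8% in the deligated libraries, while no homeostatic point is above 8.02%.

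Whether the genes were found together in the same cell was described by Spearman's rho over cells of 1 class and library at 1000 UMIs per cell, with no test, since cells of a library are not replicates and sparse counts hold rho near 0. In endothelial-like cells the closest pair was Fos and Junb, with a rho of 0.30 to 0.50 over the 4 libraries (median 0.40), followed by Fos and Jun (0.28 to 0.51, median 0.38) and Jun and Junb (0.28 to 0.43, median 0.35). Fos and Junb also led in mural-like cells (median 0.42), though from -0.01 in 1 library to 0.45. In T cell-like cells the highest median was 0.17, for Fos and Fosb. Within NK/innate lymphoid-like cells the highest median was 0.087, for Junb and Jund. Cells with at least 5 of the 10 genes detected made up 14.9% and 18.7% of deligated and 7.70% and 6.93% of homeostatic endothelial-like cells, against 4.28%, 5.85%, 2.53% and 2.11% of NK/innate lymphoid-like cells in the same order.

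**Figure D5:**
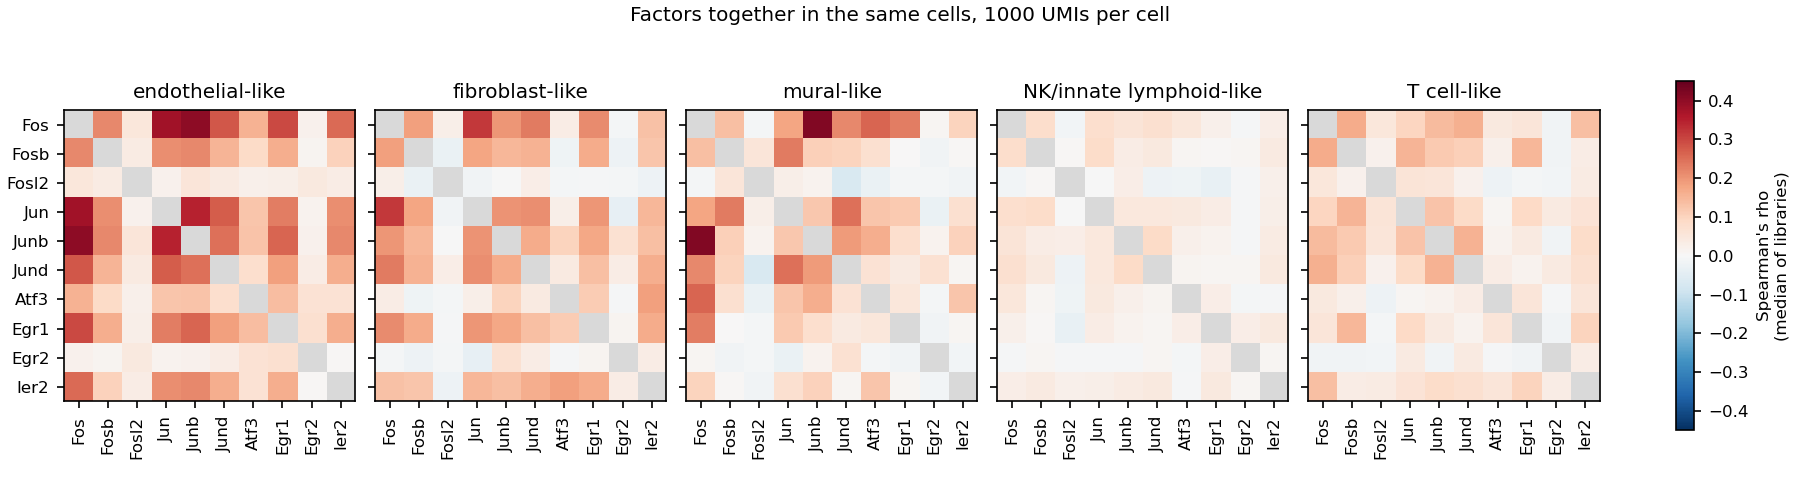
Spearman's rho of each pair of the 10 genes over cells thinned to 1000 UMIs, by class, as the median of the libraries in which both genes were detected (4 libraries, or 2 or 3 for some pairs with Egr2 or Atf3); the colour scale runs from blue (below 0) to red (above 0) and grey marks the diagonal. Fos, Jun and Junb form the darkest block in endothelial-like cells, with medians up to 0.40, while the NK/innate lymphoid-like panel is pale throughout.

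Genes around these factors were read from the same fits, over all genes only, and the lists were not fitted among short-intron genes. In these fits the genes with at most 2 kb of intron had median log2 fold changes of 0.22, 0.31, 0.19, 0.34 and 0.38. The order is endothelial-, fibroblast-, mural-, NK/innate lymphoid- and T cell-like cells. The part of intron length in the lists was not tested. The shares of all genes called higher and lower in these fits were 12.9% and 22.2% in endothelial-like, 8.48% and 17.6% in fibroblast-like, 0.568% and 4.75% in mural-like, 16.3% and 26.6% in NK/innate lymphoid-like and 7.13% and 15.4% in T cell-like cells, and each list is to be read against them. Of other immediate early genes, those called higher were 19 of 32 tested in endothelial-like (3 lower, median log2 fold change 0.45), 13 of 30 in fibroblast-like (0 lower, 0.47), 7 of 29 in mural-like (0 lower, 0.94), 16 of 30 in NK/innate lymphoid-like (2 lower, 0.51) and 19 of 28 in T cell-like cells (1 lower, 1.06). Socs3, a cytokine feedback gene, had a log2 fold change of 1.71 in endothelial-like cells and of 2.18 in the mural-like class, and Klf2, a quiescence and flow factor, of 1.58 in NK/innate lymphoid-like and 1.88 in T cell-like cells. The list was not uniform: Nr4a2, an orphan nuclear receptor and immediate early gene, fell by 0.38, 1.71 and 1.27 on the log2 scale in endothelial-, NK/innate lymphoid- and T cell-like cells (edgeR adjusted p 0.018, 5.71e-06 and 0.00162). Nr4a2 holds 13115 bases of intron, above the limit of the short-intron fit, and the part of intron length in its fall was not tested. Of the phosphatases and Sprouty proteins that switch MAP kinases off, 5 of 9 were higher in endothelial-like cells and 1 lower, and 4 of 8 were higher and 2 lower in NK/innate lymphoid-like cells. For the other classes the counts were 1 of 7 (0 lower) in fibroblast-like, 2 of 9 (0 lower) in mural-like and 3 of 9 (1 lower) in T cell-like cells. Dusp1 was higher in each of the 5 classes, from 1.24 in endothelial-like to 2.85 in T cell-like cells on the log2 scale.

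Of the AP-1 and EGR relatives outside the 10 genes, 3 of 12 were higher and 3 lower in endothelial-like, 2 of 11 and 2 in NK/innate lymphoid-like, 2 of 10 and 1 in T cell-like, 0 of 10 and 1 in fibroblast-like and 0 of 7 and 0 in mural-like cells, where 3 of the 7 had an unadjusted p under 0.05. The counts in the NK/innate lymphoid-like class lie near the shares of all genes. Fosl1, which encodes the Fos family protein Fra-1, had 0.137 and 0.238 CPM in deligated against 5.92 and 7.19 CPM in homeostatic endothelial-like cells (edgeR log2 fold change -5.03 ± 0.35 SE, adjusted p 0.000195). Its direction was opposite to that of Fos, Fosb and Fosl2 in that class. Fosl1 holds 6367 bases of intron and could not enter the short-intron fit, and the part of intron length in its fall was not tested. Of 8 upstream factors, 1, 0, 0, 1 and 1 were higher and 3, 2, 0, 4 and 2 lower in endothelial-, fibroblast-, mural-, NK/innate lymphoid- and T cell-like cells. Of 9 MAP kinases, 2, 1, 0, 2 and 0 were higher and 4, 1, 0, 3 and 2 lower in the same order. Mkl1, a serum response factor coactivator with over 100 kb of intron, fell by 1.64 to 2.33 on the log2 scale in 4 classes. Map2k4, with 95391 bases of intron, fell by 0.79 to 1.58 in the same 4 classes. Mapk3, which encodes ERK1, rose by 0.48 in endothelial-like, 0.60 in fibroblast-like and 0.64 in NK/innate lymphoid-like cells. Of 11 heat shock genes, another group that dissociation can induce, 3 were higher in endothelial-like, 2 in fibroblast-like, 0 in mural-like, 7 in NK/innate lymphoid-like and 2 in T cell-like cells, and 0 were lower, beside the shares of all genes called higher of 12.9%, 8.48%, 0.568%, 16.3% and 7.13%. In mural-like cells 1 of the 11 had an unadjusted p under 0.05. Hspa1b, a stress-inducible HSP70 gene, was at 64.4 and 54.1 against 27.8 and 27.9 CPM in endothelial-like cells (edgeR log2 fold change 1.11 ± 0.13 SE, adjusted p 0.00143). Its part in the levels of the 10 genes was not tested.

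The genes whose pattern was most like the mean of the 10, over 16 sums of 4 classes and 4 libraries and 14682 genes, were Mob1a (Pearson r 0.94), Raly, Rrp1, G3bp2, Pcbp2, Ythdc1, Mapre1, Prkar1a, Mllt6 and Csrnp1 (0.92). These sums share library, depth and software version, and r is given as a description. Of the 10 genes themselves, Fosl2 (0.91), Ier2 (0.90), Junb (0.89) and Fos (0.88) lay nearest to their mean, while Atf3 (0.43), Egr1 (0.13) and Egr2 (-0.16) did not follow it. Each of these genes is part of that mean, so its r is raised by its own values and cannot be set beside those of other genes.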

How the data were processed

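Single-cell libraries were read from the deposited matrices of raw UMI counts per gene and barcode, made with Cell Ranger 6.0.1 (deligated) or 7.0.0 (homeostatic) per the file headers; the submitters' processing notes name Cell Ranger 6.0.1, Seurat and mm10. Whether intron reads or strand were used in counting is not given in the sources used here. Cells were kept with at least 300 genes and at most 10% mitochondrial UMIs, doublets were removed at 0.8% per 1000 cells after scoring against simulated doublets, and cells were clustered (3000 variable genes, 30 components, 20 neighbours, Leiden resolution 1.0) without the 10 genes and the pathway lists. A cluster was named with at least 3 fixed markers detected in 10% of its cells at 2-fold; scoring details were set with clusters in view, and 3.83% and 7.23% of deligated and 22.9% and 25.2% of homeostatic cells stayed unnamed. UMI counts of each class were added up by library and tested with edgeR 4.0.16 (R 4.3.3; quasi-likelihood, TMM, filterByExpr, Benjamini-Hochberg over the genes of a class, threshold 0.05); DESeq2 1.42.0 was an alternative. With 2 against 2 libraries the smallest exact permutation p is 0.333. The edgeR script was tested on simulated data. Intron lengths came from GENCODE M21 (31011 of 31053 identifiers matched). With 1 library left out, the lone library of a group is assumed to vary like the others. The 10 genes, the lists and the tests were chosen with earlier results of these data known. All 10 genes are named in every class, with at most 2 genes per list, direction and class, those with the largest changes past the threshold, and the 10 genes of most similar pattern. Counting intervals cover counting error only.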

Additional observations from a re-analysis of the deposited data

Results flagged for a closer look

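The change after deligation differed between endothelial-, fibroblast-, NK/innate lymphoid- and T cell-like cells for 6 of the 10 genes, against 10.0% of all genes (edgeR F test over the 4 classes, adjusted over 14682 genes). The adjusted p was 0.00131 for Junb, with log2 fold changes of 0.79, 1.22, 1.39 and 1.65 in that order of classes. It was 0.00197 for Ier2 (0.86, 0.10, 0.68 and 1.09) and 0.00926 for Egr1 (1.44, 0.72, 0.19 and 0.88). For Fosb it was 0.0142 (0.86, 1.00, -0.20 and 0.44), for Atf3 0.0215 (0.25, -1.003, -1.88 and 0.72) and for Jund 0.0478 (0.49, 0.25, 0.50 and 0.73). Without homeostatic replicate 1 or 2 none of the 6 passed.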

How the results depend on the processing

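The counts of members called higher moved with the intron settings and with the libraries left out. With genes of at most 2 kb of intron they were 4 in endothelial-, 2 in fibroblast-, 0 in mural-, 2 in NK/innate lymphoid- and 3 in T cell-like cells, with 0 lower in NK/innate lymphoid-like cells; fewer members and genes were tested. With the intron-length trend removed they were 2 in mural-, 3 in NK/innate lymphoid- and 4 in T cell-like cells, with 2 lower in NK/innate lymphoid-like cells. Without doublet removal 1 member was lower in fibroblast-like cells. With each library left out in turn the counts higher ran from 3 to 7 (fibroblast-like) and from 1 to 6 (mural-like), that lower in NK/innate lymphoid-like cells from 1 to 2, and that of members whose response differed between classes from 0 to 10. The share of all genes called is not given here for these settings. With 1 library left in a group, only the other group gives a spread between libraries, so those counts are not comparable with the full fits. The cause of these changes was not tested. Signs turned only in values that did not pass the threshold: in thinned cells for Atf3 (-0.36) and Jund (-0.098) in mural-like and Ier2 (-0.027) in fibroblast-like cells, in the short-intron fit for Egr1 in NK/innate lymphoid-like (-0.14), Ier2 (-0.21) and Jund (-0.056) in fibroblast-like and Jund (-0.029) in mural-like cells, and with the trend removed for the same 4 (-0.15, -0.24, -0.099 and -0.15) and Fosl2 in mural-like cells (-0.054). With libraries left out the log2 fold changes ran from -0.58 to 1.38 (Atf3, T cell-like), -0.027 to 0.50 (Atf3, endothelial-like), -0.43 to 1.08 (Atf3, mural-like), -0.036 to 0.81 (Egr2, fibroblast-like), -0.12 to 0.29 (Fosl2, mural-like), -0.25 to 0.48 (Egr1, NK/innate lymphoid-like) and -0.032 to 0.25 (Ier2, fibroblast-like). The difference in joint-high share, 10.3 percentage points in endothelial-, 2.57 in fibroblast-, 4.90 in mural-, 5.35 in NK/innate lymphoid- and 7.70 in T cell-like cells, became 4.21, 0.0719, 0.942, 0 and 0.669 at 20 UMIs; at 5 UMIs it was 9.71, 8.56, 25.2 and 27.7 in the last 4 classes. With at least 5 members detected it was 5.09 in fibroblast- and 2.75 in NK/innate lymphoid-like cells, unthinned 2.10, 2.70, 1.70 and 5.80 in fibroblast-, mural-, NK/innate lymphoid- and T cell-like cells, and without doublet removal 1.99 and 6.77 in fibroblast- and T cell-like cells. In mural-like cells it was 2.33 with the stricter cell filter. The replicate numbers of the titles only name the libraries: deviations of same-numbered libraries correlated between -0.17 and -0.032, and with the replicate number as a block 9, 5, 4, 6 and 7 members were higher, against 9, 5, 5, 6 and 7.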
